A study of Mus musculus with 12 samples.

Results

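Isoproterenol (ISO) was compared with vehicle in left ventricles of mice that carried both a GRK-beta1AR transgene and a miR-150 transgene, called double transgenic (DTG) mice here. The 6 arrays of this comparison were chosen by their sample titles, 3 from ISO-treated and 3 from vehicle-treated DTG mice, out of 12 arrays in the series. The other 6 arrays came from mice with the GRK-beta1AR transgene only (TG), treated in the same 2 ways. The ISO TG mice were a female of 9 weeks and 2 males of 10 weeks, and the vehicle TG mice were a female of 9 weeks, a male of 9 weeks and a male of 12 weeks. All mice were C57BL/6J, and the treatment lasted 1 week. The GRK-beta1AR transgene overexpresses, in cardiac muscle cells, a beta1-adrenergic receptor without the sites that G protein-coupled receptor kinases phosphorylate, so that signalling through beta-arrestin is impaired. Both ISO DTG and vehicle DTG mice carried it, together with miR-150 driven by the CAG promoter, which is active in most cell types. Neither group therefore gives the effect of ISO in a heart with a normal receptor or without added miR-150. ISO was delivered by mini-osmotic pumps at 3 mg/kg/day for 7 days according to the methods, with vehicle being ascorbic acid in saline, whereas the deposited design text speaks of injection. The ISO DTG mice were a male of 10 weeks, a male of 11 weeks and a female of 12 weeks (replicates 1 to 3), and the vehicle DTG mice were a female and 2 males, all of 10 weeks.

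Isoproterenol is a synthetic catecholamine that activates beta-adrenergic receptors, and its continuous delivery is a common model of the chronic adrenergic drive seen in heart failure. A circular RNA (circRNA) is formed when a downstream splice site is joined to an upstream one. The closed loop has no free ends, which makes it resistant to RNase R, an enzyme that digests RNA from a free end. MiR-150 is a microRNA, a short RNA that guides repression of target transcripts, and some circRNAs can bind microRNAs. The question posed by the comparison is which cardiac circRNAs differ with ISO when miR-150 is present in excess.

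Each array held 14236 circRNA probes with 1 spot each and 50 probes for linear RNA with 10 spots each. Signal is fluorescence intensity after background correction, and levels are given as log2 signal minus the 75th percentile of the circRNA probes of that array, so that a level of 0 is the 75th percentile and each unit is a doubling. That percentile was between 129 and 171 intensity units on the 6 arrays, the share of circRNA probes marked well above background was between 86.3% and 88.4%, and 0 spots were saturated. Between 20.0% and 26.7% of negative control spots carried the same mark, and the brightest negative control probe was between 16.1 and 27.0 units per array. A probe entered the test if it had this mark on 3 or more arrays, which kept 12493 circRNA probes (87.8%) and 41 linear RNA probes. The circRNA probes are given here by number, because no table used here pairs these numbers with a circRNA name or host gene. The 6 arrays resembled each other closely, with Spearman correlations (across probes, so not over independent replicates) of 0.984 to 0.987 within ISO DTG, 0.958 to 0.984 within vehicle DTG and 0.965 to 0.984 between the groups. Replicate 2 of vehicle DTG was the array farthest from the rest, with a median distance of 0.27 log2 units from the mean of the other 5 arrays, against 0.18 to 0.24 for those arrays. The scan identifiers grouped the 3 ISO DTG arrays with vehicle DTG replicate 3 (slide 1), and set vehicle DTG replicates 1 and 2 apart from them (slide 2). Arrays that share an identifier are called a slide here, but whether they shared a physical slide is not stated. Slide in this sense and treatment largely coincided. The labels do not say more about how the mice were housed or handled together, and p-values measure the spread between these 6 arrays.

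No circRNA differed between ISO DTG and vehicle DTG at the adjusted limit. With limma and Benjamini-Hochberg adjustment over the 12534 probes tested, 0 circRNA probes and 0 linear RNA probes (0% of all probes tested) had an adjusted p below 0.05, and the lowest adjusted p from limma was 0.22. The methods' t-test, run on these log2 levels, also called 0 circRNA probes after the same adjustment. At an unadjusted p below 0.05, limma counted 1623 circRNA probes, or 13.0% of all probes tested in either direction, where 5% of the circRNA probes would be 625, and the methods' t-test counted 1529. Of these 1623, 985 were higher in ISO DTG and 638 were lower, against 7.87% and 5.11% of all probes tested. The count was between 977 and 1062 without vehicle DTG replicate 1, ISO DTG replicate 2 or ISO DTG replicate 3, and came to 2071 without vehicle DTG replicate 2 and 2139 without vehicle DTG replicate 3. With age as a term the count was 672. All vehicle DTG mice were 10 weeks old, so the age slope came from the ISO DTG mice alone. That fit compares ISO DTG as fitted at 10 weeks with vehicle DTG. Array weights, which gave vehicle DTG replicate 2 the lowest weight (0.36) and vehicle DTG replicate 1 the highest (2.96), led limma to call 513 circRNA probes at an adjusted p below 0.05, with a count of 3101 at an unadjusted p below 0.05.

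Most circRNA levels lay close together in the 2 groups. The central 90% of log2 fold changes ran from -0.52 to 0.53 with a median of -0.01, and 92.8% of the tested circRNA probes were less than 1.5-fold apart. The median SE of a fold change was 0.19 on the log2 scale. Levels spread more among vehicle DTG arrays, with a median SD of 0.24, than among ISO DTG arrays, with a median SD of 0.18 (n = 3 each). The vehicle DTG arrays were split between slides while the ISO DTG arrays shared 1. Among the vehicle DTG arrays, replicates 1 and 3, from different slides, had a Spearman correlation of 0.984. Replicates 1 and 2, from the same slide, had 0.973, and replicates 2 and 3 had 0.958. What part of the spread came from slides and what part from mice was not tested. At least 1.5-fold apart with an unadjusted p below 0.05 were 403 probes higher in ISO DTG (3.22% of all probes tested) and 300 lower (2.39%). At 2-fold the counts were 45 and 50, among 12493 circRNA probes tested. Of these 2-fold probes, 39 were well above background on all 6 arrays and 56 were not. A probe with that mark on only 3 arrays could enter the test through the group where it was high. Groups did not overlap, all 3 ISO DTG arrays being above or below all 3 vehicle DTG arrays, for 1499 probes in the upward and 989 in the downward direction, and 20.0% of all probes with 6 values were separated in one way or the other. With 3 mice against 3, an exact two-sided permutation test of a single probe cannot give less than p = 0.10.

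**Figure D1:**
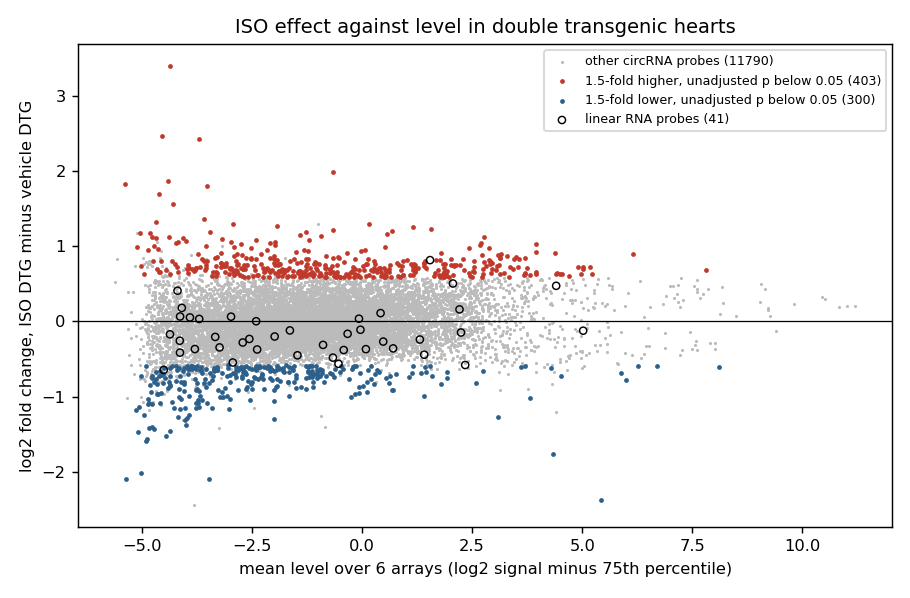
Each point is a probe, with its mean level over the 6 arrays on the x axis (log2 signal minus the 75th percentile) and the log2 fold change of ISO DTG minus vehicle DTG on the y axis. Red points are the 403 circRNA probes at least 1.5-fold higher and blue points the 300 at least 1.5-fold lower with an unadjusted p below 0.05, grey points are the other circRNA probes and open circles are the 41 linear RNA probes. Blue points lie mostly at low levels, and 0 points passed the adjusted limit.

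The direction of these differences went with signal level. The tested circRNA probes were divided into 5 classes of equal size by their mean level over the 6 arrays. In the brightest class, with signals above 214 units, 369 probes were higher in ISO DTG and 76 lower at an unadjusted p below 0.05, and the median log2 fold change was 0.08. In the dimmest class, with signals up to 20.1 units, 120 were higher and 195 lower, and the median was -0.09. The 3 classes between had medians of -0.04, -0.02 and 0.00, with 140 higher and 161 lower, 165 higher and 124 lower, and 191 higher and 82 lower, from dim to bright. The 1.5-fold limit gave 130 higher and 33 lower probes in the brightest class and 84 higher and 131 lower in the dimmest. The median signal was 81.8 units for the 402 higher probes with a value on every array and 23.6 units for the 295 lower ones, which is within the range of the brightest negative control probes.

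**Figure D2:**
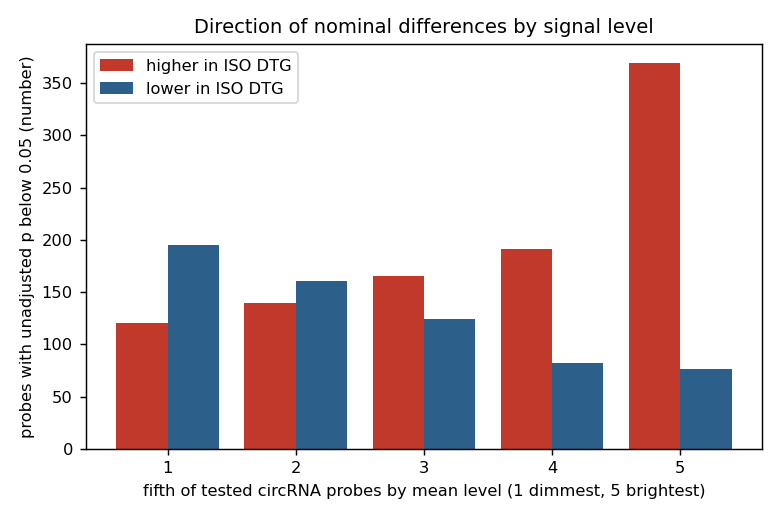
Bars give the number of circRNA probes with an unadjusted p below 0.05 in each of 5 equal classes of mean level, from the dimmest (1) to the brightest (5), red for higher and blue for lower in ISO DTG. The balance runs from 120 higher against 195 lower in class 1 to 369 higher against 76 lower in class 5.

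One vehicle array differed from the rest in the dimmest class. In the dimmest class the median level was -3.68, -3.75 and -3.67 in ISO DTG and -3.71, -3.41 and -3.74 in vehicle DTG (replicates 1 to 3), so that vehicle DTG replicate 2 stood above the other 5 arrays. In the brightest class the medians were 1.53, 1.56 and 1.56 in ISO DTG and 1.54, 1.49 and 1.48 in vehicle DTG. Without vehicle DTG replicate 2, the median log2 fold change was 0.08 in the brightest class and 0.02 in the dimmest, and the counts of the dimmest class turned to 238 higher and 184 lower. Quantile normalization gives every array the same distribution of values, so a smaller gap between the classes is built in. It brought the medians of the brightest and dimmest classes to 0.03 and -0.00. The counts were 291 higher and 137 lower probes in the brightest class and 186 higher and 148 lower in the dimmest.

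The overall balance depended on what each array was scaled to. The array's own 14 circRNA control probes averaged 1.59, 1.81 and 1.88 in ISO DTG and 1.56, 1.54 and 1.35 in vehicle DTG, relative to the 75th percentile, and the groups did not overlap. Scaled to these controls, the median circRNA probe was lower in ISO DTG by a log2 fold change of -0.29, and 127 circRNA probes were higher and 2608 lower at an unadjusted p below 0.05. The class medians moved with it to -0.19 in the brightest and -0.36 in the dimmest, since such scaling moves all probes of an array by the same amount and leaves the gap between classes as it was. A normexp background correction of the median spot signal, with an offset of 50 units added, shifted the median circRNA probe by a log2 fold change of -0.29. It gave 671 higher and 2744 lower probes, of which 613 higher and 6 lower were in the brightest class. Removing that shift left 1752 higher and 996 lower. What the control probes contain is not given in the sources used here, and the part of labelling, RNase R treatment and scanning in these shifts was not tested.

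**Figure D3:**
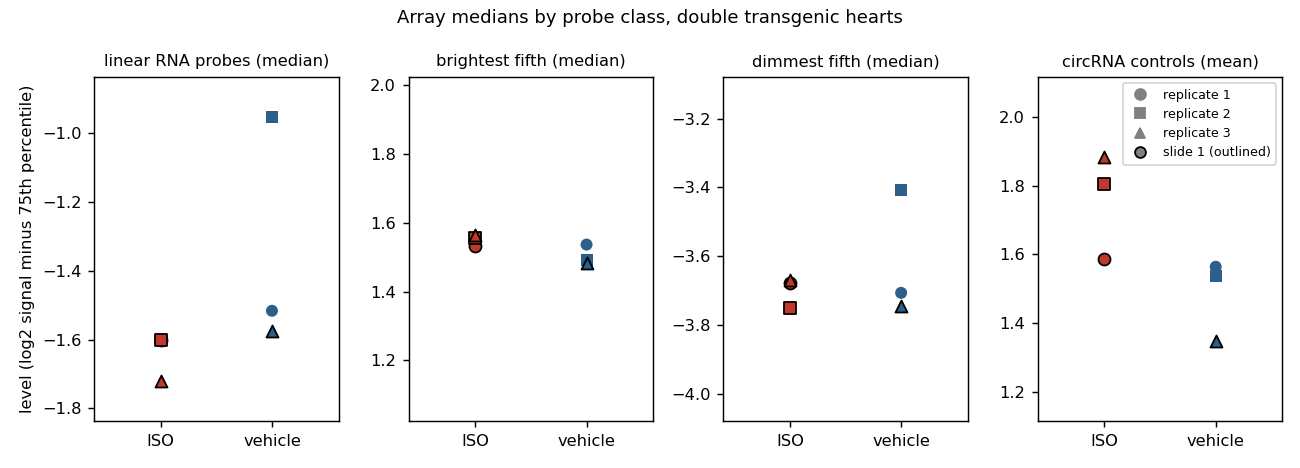
Each point is 1 array, red for ISO DTG and blue for vehicle DTG, with its shape giving the replicate and a black outline the arrays of slide 1. The y axes span the same range of 1 log2 unit and give the median level of linear RNA probes, of the brightest and the dimmest class of circRNA probes, and the mean level of the circRNA control probes. Vehicle DTG replicate 2 stands above the other arrays in the linear RNA panel at -0.95 and in the dimmest class at -3.41, and the control probes are higher on all 3 ISO DTG arrays.

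Among circRNA probes that were well above background on all 6 arrays and separated the groups, the 6 largest differences upward were between 2.29-fold and 2.46-fold. Their adjusted p from limma was between 0.22 and 0.25. The pair with the smallest SE were ASCRP4009189 and ASCRP4011646. ASCRP4009189 had levels of 2.32, 2.16 and 2.04 in ISO DTG and 0.72, 0.99 and 1.12 in vehicle DTG, a gap of about 1 log2 unit between the nearest arrays. Its log2 fold change was 1.23 ± 0.17 (SE, n = 3 and 3, limma adjusted p = 0.22), and with slide as a term it was 1.05. Because all ISO DTG arrays were on 1 slide, the value with slide as a term is the ISO DTG mean minus vehicle DTG replicate 3 alone, here and for every probe below. ASCRP4011646 had levels of 1.76, 2.06 and 1.55 in ISO DTG and 0.42, 0.49 and 0.67 in vehicle DTG, so that the arrays within each group lay near each other. The log2 fold change was 1.26 ± 0.18 (SE, limma adjusted p = 0.22), and with slide as a term it was 1.12.

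In ASCRP4008502, ASCRP4002340 and ASCRP4004639 the vehicle arrays lay farther apart. ASCRP4008502 had levels of 0.99, 0.87 and 0.58 in ISO DTG and 0.24, -1.05 and -0.64 in vehicle DTG, and the log2 fold change was 1.30 ± 0.31 (SE). ASCRP4002340 had levels of 1.56, 1.24 and 1.07 in ISO DTG and 0.71, -0.27 and -0.17 in vehicle DTG, and the log2 fold change was 1.20 ± 0.28 (SE). In both, vehicle DTG replicate 1 was the vehicle array nearest to ISO DTG. ASCRP4004639 had levels of -1.28, -1.18 and -1.40 in ISO DTG and -3.42, -2.43 and -1.85 in vehicle DTG, a narrow group against a wide one. Vehicle DTG replicate 3 was the nearest there, and the log2 fold change of 1.28 became 0.56 with slide as a term. ASCRP4001752 was dim, with levels of -2.37, -2.68 and -1.77 in ISO DTG and -3.70, -3.66 and -3.35 in vehicle DTG. Its log2 fold change was 1.30 ± 0.24 (SE). Normexp background correction turned it to -0.31, and to -0.037 with median scaling, which removes the shift shared by all probes. The offset of 50 units in normexp was above all signals of this probe (10.7 to 45.9 units). Such an offset draws differences of dim probes towards 0, so these values do not show a reversal.

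The 6 largest differences downward were all in dim probes, with signals of 5.11 to 15.6 units in ISO DTG and 11.1 to 35.3 units in vehicle DTG. All of the ISO DTG signals were below the brightest negative control probe of the same array, at 16.1, 18.1 and 18.1 units in replicates 1 to 3. They were between 2.12-fold and 2.37-fold lower, with an adjusted p from limma between 0.22 and 0.33. The largest was ASCRP4001806, with levels of -4.40, -4.66 and -4.57 in ISO DTG and -2.92, -3.05 and -3.92 in vehicle DTG. Vehicle DTG replicate 3 lay nearer to ISO DTG than the other vehicle arrays, and the log2 fold change of -1.25 ± 0.26 (SE) was -0.63 with slide as a term. ASCRP4008330 had levels of -3.49, -4.01 and -3.33 in ISO DTG and -2.08, -2.62 and -2.62 in vehicle DTG, a log2 fold change of -1.17 ± 0.24 (SE). ASCRP4009777 had levels of -4.16, -4.61 and -4.30 against -2.91, -3.16 and -3.54, and ASCRP4007628 had levels of -4.17, -4.47 and -4.29 against -2.89, -3.62 and -3.18. In these 3 probes the slide term left log2 fold changes of -0.99, -0.81 and -1.13. ASCRP4005490 had levels of -4.34, -4.01 and -4.44 in ISO DTG and -3.10, -2.68 and -3.75 in vehicle DTG. ASCRP4001339 had levels of -3.92, -3.90 and -4.36 in ISO DTG and -3.11, -1.99 and -3.81 in vehicle DTG, where vehicle DTG replicate 2 was far above the others. The slide term reduced the log2 fold change of ASCRP4005490 from -1.08 to -0.51 and that of ASCRP4001339 from -1.09 to -0.25.

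**Figure D4:**
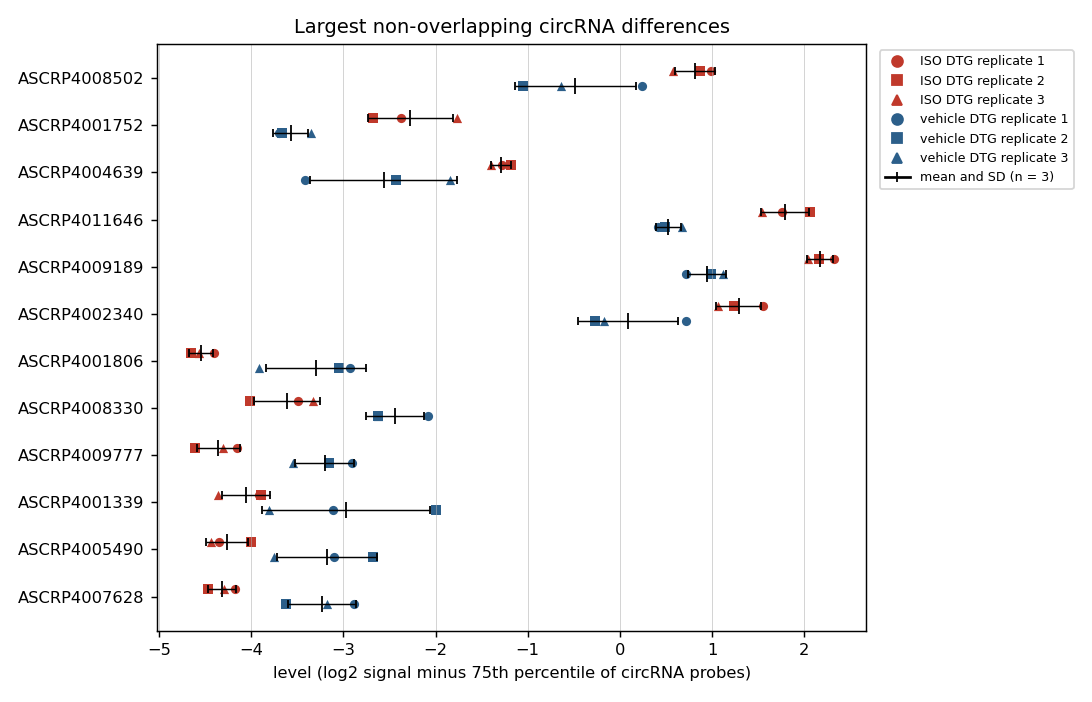
The x axis gives the level (log2 signal minus the 75th percentile of circRNA probes) of the 6 largest upward and the 6 largest downward differences among circRNA probes well above background on all arrays with groups that do not overlap. Points are single mice, red for ISO DTG and blue for vehicle DTG, and bars are the mean and SD of 3 mice. All 6 probes lower in ISO DTG have levels of -1.99 or less, and the ISO DTG points are mostly closer together than the vehicle DTG points.

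Because vehicle DTG replicate 3 shared a slide with the ISO DTG arrays, the difference could be taken within that slide. For the 402 circRNA probes at least 1.5-fold higher, the median log2 difference of the ISO DTG mean was 0.72 from the vehicle array of the same slide and 0.73 from the vehicle arrays of the other slide. For the 295 lower probes the medians were -0.72 and -0.78. These arrays also chose the probes, so the values are a description. Vehicle DTG replicate 3 was above both other vehicle arrays in 142 of the 402 higher probes and below both in 124 of the 295 lower ones. For any probe 1 of the 3 vehicle arrays is highest and 1 lowest, and the share over all probes was not taken. These counts are therefore a description too. With slide as a term, limma called 3 circRNA probes with an adjusted p below 0.05, all of them higher in ISO DTG and at signals of 1.18 to 20.8 units on the 6 arrays. They were ASCRP4006509, ASCRP4000074 and ASCRP4002751, which were picked out after their values were seen, and vehicle DTG replicate 3 was the lowest array for each. The 3 ISO DTG arrays against vehicle DTG replicate 3 alone gave 10 such probes, where the lone vehicle array is assumed to vary like the ISO DTG arrays.

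Leaving out 1 vehicle array brought single probes past the adjusted limit. ASCRP4009191, which was picked out after its values were seen, had signals of 159, 180 and 197 units in ISO DTG and 24.3, 167 and 26.7 units in vehicle DTG. Vehicle DTG replicate 2 was at the level of ISO DTG, while the other vehicle arrays were several-fold below. Without vehicle DTG replicate 2, its log2 fold change was 2.98 and its limma adjusted p was 0.0016, against 1.99 and 0.31 with all 6 arrays. In ASCRP4009532 vehicle DTG replicate 2 was again the highest vehicle array. The unscaled signals were 22.8, 25.8 and 21.1 units in ISO DTG and 4.08, 18.7 and 4.62 units in vehicle DTG. ASCRP4009532 was the other of 2 probes called without that array, at a limma adjusted p of 0.0093. Without vehicle DTG replicate 3, 1 probe was called, ASCRP4003122, with signals of 8.15, 7.77 and 11.8 units in ISO DTG and 52.0, 40.6 and 8.25 units in vehicle DTG.

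Some large differences downward in bright probes rested on few spots. ASCRP4007459 was 5.22-fold lower in ISO DTG, but only 3 of its 6 spots were free of outlier marks. The spot kept in ISO DTG had a signal of 2002 units and those kept in vehicle DTG had 11113 and 10068 units, while the marked spots had 5479 and 4828 units in ISO DTG and 3468 units in vehicle DTG. With the marked spots kept, the log2 fold change went from -2.38 to -0.86. ASCRP4001399 also kept 3 spots, and its log2 fold change went from -1.77 to -0.58 with all spots. In total, 78 tested circRNA probes lacked a value on at least 1 array.

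The 5 brightest circRNA probes were slightly higher in ISO DTG, by an amount that depended on the processing. Their signals lay between 162996 and 376763 units on the 6 arrays, at levels of 9.90 to 11.51, and their log2 fold changes were between 0.19 and 0.33. ASCRP4006710, the brightest, had levels of 11.24, 11.51 and 11.16 in ISO DTG and 11.07, 11.21 and 11.02 in vehicle DTG, and the groups overlapped. ASCRP4012684 had levels of 10.60, 10.74 and 10.51 in ISO DTG and 10.36, 10.60 and 9.90 in vehicle DTG, a log2 fold change of 0.33 ± 0.20 (SE, limma adjusted p = 0.52). All 5 were higher in ISO DTG, by less than 2 SE each. That order depended on the scaling. Relative to the circRNA controls ASCRP4006710, ASCRP4006342 and ASCRP4004008 came out below vehicle. Quantile normalization gives the same value to each rank on every array, so it cannot show a shift shared by the brightest probes. It left ASCRP4006342 at 0.07, ASCRP4004008 at -0.07, and ASCRP4006710, ASCRP4012684 and ASCRP4011502 at 0. Normexp gave larger log2 fold changes of 0.49 to 0.61, and 0.76 to 0.88 with median scaling, at which 4 and all 5 of the probes had an unadjusted p below 0.05, and 0 passed the adjusted limit. Against vehicle DTG replicate 3 alone, as with slide as a term, ASCRP4012684 differed by 0.72.

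Linear RNA probes report RNA that remained after RNase R treatment, so their signal depends on how much linear RNA escaped digestion as well as on the transcript. Fewer cells of a type and less RNA per cell cannot be told apart in such tissue samples. The tables used here matched 44 of the 50 linear probes to a gene symbol, and 36 of the 41 tested had one. None of the 31 fixed markers of cardiomyocytes, fibroblasts, endothelial, immune, red blood, liver or fat cells was on the array (0 of 31), so the left ventricular label could not be checked by them, and neither Adrb1 nor Mir150 was there to check the transgenes. The highest linear signal belonged to Hspb7, a small heat shock protein of heart and skeletal muscle, with 3882 to 4729 units in ISO DTG and 4061 to 6492 units in vehicle DTG.

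Linear RNA as a whole was not separated between the groups. At an unadjusted p below 0.05 there were 4 of 41 linear probes (9.76%), 2 higher and 2 lower, beside the 13.0% of all probes tested, and 1 of 41 had groups that did not overlap, beside 20.0%. The median log2 fold change over the 41 probes was -0.21, with 28 lower and 13 higher, beside -0.01 over circRNA probes. One array carried this balance: the median level of linear probes was -1.60, -1.60 and -1.72 in ISO DTG and -1.52, -0.95 and -1.58 in vehicle DTG, with vehicle DTG replicate 2 about 0.6 log2 units above the other 5. Without vehicle DTG replicate 2, the median log2 fold change was -0.00, with 21 lower and 20 higher. With slide as a term, which leaves vehicle DTG replicate 3 as the reference, it was 0.12, with 14 lower and 27 higher.

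Spots of a linear probe differed little within an array, while arrays of different mice differ in RNase R treatment, labelling and hybridization as well as in the animal. The SD over the 10 spots of a linear probe within an array had a median of 0.08 on the log2 scale, while the SD over mice had a median of 0.16 in ISO DTG and 0.38 in vehicle DTG. The SD over mice was above that over spots in 29 of 41 probes in ISO DTG and in 39 of 41 in vehicle DTG. It was larger in vehicle DTG than in ISO DTG for 31 of 41 probes. The vehicle DTG arrays were also split between slides, unlike the ISO DTG arrays. Vehicle DTG replicate 2 had a median level of linear probes of -0.95, against -1.52 and -1.58 in replicates 1 and 3, which were on different slides.

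Genes of fatty acid oxidation, the main source of energy of the adult heart, were represented by 3 probes, of which 1 was higher at an unadjusted p below 0.05 and 0 were lower, beside 9.76% of linear probes and 13.0% of all probes in either direction. Their median log2 fold change was -0.11, beside -0.21 over all 41 linear probes. Ppara, a nuclear receptor that activates genes of fatty acid oxidation, had levels of 2.25, 2.14 and 2.56 in ISO DTG and 1.63, 2.18 and 1.62 in vehicle DTG. Vehicle DTG replicate 2 fell among the ISO DTG arrays, and the log2 fold change was 0.50 ± 0.21 (SE, limma adjusted p = 0.37). Under 12 of the alternatives tried Ppara no longer had an unadjusted p below 0.05, and it had one under the other 12. Acaa2, the mitochondrial thiolase of the last step of beta-oxidation, had levels of 1.42, 1.22 and 0.93 in ISO DTG and 1.74, 1.21 and 1.95 in vehicle DTG. Here too vehicle DTG replicate 2 lay among the ISO DTG arrays, and the log2 fold change was -0.44 ± 0.23 (SE, limma adjusted p = 0.45) with all arrays, -0.66 without that array and -0.28 without vehicle DTG replicate 3. Cpt1a, which commits long-chain fatty acids to entry into mitochondria, had levels of 0.33, -0.46 and -0.14 in ISO DTG and 0.01, -0.17 and 0.22 in vehicle DTG, with no separation of the groups and a log2 fold change of -0.11 ± 0.22 (SE).

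Antioxidant and glutathione enzymes were represented by 2 probes with a median log2 fold change of -0.47, beside -0.21 over all 41 linear probes. Of them, 0 had an unadjusted p below 0.05, beside 9.76% of linear probes and 13.0% of all probes in either direction. Gsta4, a glutathione transferase that detoxifies products of lipid peroxidation, had levels of -0.53, -0.77 and -1.15 in ISO DTG and 0.31, -0.95 and -0.11 in vehicle DTG. Its vehicle arrays spread over more than 1 log2 unit, and the log2 fold change of -0.56 ± 0.32 (SE) was -0.91 without vehicle DTG replicate 2 and -0.28 without vehicle DTG replicate 1. Prdx2, a peroxiredoxin that reduces peroxides, had levels of -0.88, -0.58 and -0.36 in ISO DTG and -0.18, -0.40 and -0.10 in vehicle DTG. ISO DTG replicate 3 lay above vehicle DTG replicate 2, and the log2 fold change was -0.38 ± 0.18 (SE, limma adjusted p = 0.42). Apoe, the lipid-carrying apolipoprotein and the single probe for lipid transport, had levels of 2.16, 2.37 and 2.34 in ISO DTG and 2.08, 2.36 and 1.96 in vehicle DTG. It differed by a log2 fold change of 0.16 ± 0.17 (SE), which is within the spread between mice.

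Lhfp, which encodes a tetraspan membrane protein, was the only tested linear probe whose groups did not overlap. Its levels were 2.67, 1.72 and 1.46 in ISO DTG and 0.89, 1.42 and 1.096 in vehicle DTG. ISO DTG replicate 1 stood well above the rest, and the log2 fold change of 0.82 ± 0.31 (SE, limma adjusted p = 0.33) was 0.46 without it. Actb, the cytoskeletal beta-actin, had levels of 2.23, 2.02 and 1.91 in ISO DTG and 2.75, 2.18 and 2.97 in vehicle DTG, with vehicle DTG replicate 2 again among the ISO DTG arrays. The log2 fold change was -0.58 ± 0.22 (SE, limma adjusted p = 0.34). Uhrf1bp1l was dim, with levels of -3.61, -3.09 and -2.93 in ISO DTG and -2.97, -2.56 and -2.45 in vehicle DTG, and a log2 fold change of -0.55 ± 0.23 (SE). ISO DTG replicate 3 lay just above vehicle DTG replicate 1. H2-Q7, a class I molecule of the major histocompatibility complex and the second brightest linear probe, had levels of 4.27, 4.44 and 5.22 in ISO DTG and 3.94, 4.23 and 4.34 in vehicle DTG, and ISO DTG replicate 3 alone was clearly above the others. Hspb7 had levels of 5.05, 5.19 and 4.63 in ISO DTG and 5.44, 4.90 and 4.91 in vehicle DTG, and the groups overlapped.

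**Figure D5:**
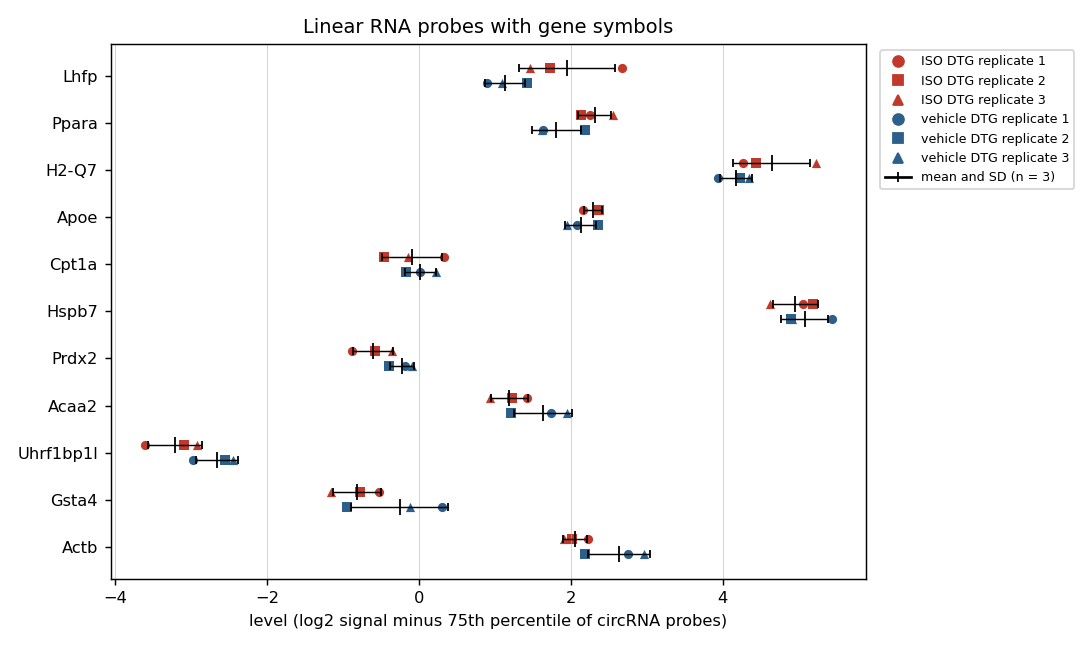
The x axis gives the level (log2 signal minus the 75th percentile of circRNA probes) of 11 linear RNA probes, ordered from the highest to the lowest log2 fold change. Points are single mice, red for ISO DTG and blue for vehicle DTG, and bars are the mean and SD of 3 mice. The groups overlap for every gene shown except Lhfp.

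The linear probe for Olfr166, an olfactory receptor, gave clear signal in these hearts, and it was picked out after its values were seen. It had 194, 206 and 213 units in ISO DTG and 278, 369 and 213 units in vehicle DTG. These signals are unscaled, and vehicle DTG replicate 3 had the same signal as ISO DTG replicate 3. The 75th percentiles of these arrays were 171 and 157 units, so vehicle DTG replicate 3 was lower than ISO DTG replicate 3 after scaling. The other vehicle arrays were higher. On the scaled values the log2 fold change was -0.36 ± 0.27 (SE), and the groups overlapped. Which RNA this probe captured was not tested.

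Whether ISO acted differently in DTG than in TG hearts was tested as an interaction over all 12 arrays. All TG arrays shared the slide of vehicle DTG replicates 1 and 2, while the ISO DTG arrays were on the other slide. A difference between slides would enter the ISO difference in DTG but not that in TG. Slide and a different ISO effect can therefore not be told apart in the interaction or in the DTG and TG values below. Limma called 0 linear RNA and 0 circRNA probes at an adjusted p below 0.05 (0% of 13065 probes tested), and the lowest adjusted p from limma for a linear probe was 0.74. At an unadjusted p below 0.05 there were 6 of 44 linear probes and 627 circRNA probes, beside 4.85% of all probes tested. When 1 TG array was left out, the linear count ranged from 0 without ISO TG replicate 1 to 15 without vehicle TG replicate 1. The circRNA count ranged from 312 without ISO TG replicate 1 to 2938 without vehicle TG replicate 1 when 1 TG array was left out. It was 346 without ISO TG replicate 2 and 1640 without ISO TG replicate 3, and 0 circRNA probes passed the adjusted limit in any of these fits. The median SE of the interaction for a linear probe was 0.60 on the log2 scale. For the 402 circRNA probes at least 1.5-fold higher in ISO DTG with a value on every array, the median log2 fold change of ISO against vehicle was 0.71 in DTG and 0.13 in TG. For the 295 lower probes it was -0.73 in DTG and -0.41 in TG. Without vehicle TG replicate 3, whose 75th percentile of 424 units stood against 80.3 to 132 units on the other TG arrays, the TG medians were -0.07 and -0.15. The probes were chosen by their DTG values, so these medians are a description. Of them, 52 of 402 and 35 of 295 had an unadjusted interaction p below 0.05, beside 4.85% of all probes tested. The counts were 31 to 149 and 20 to 74 when 1 TG array was left out. The interaction contains the DTG difference by which these probes were chosen. A higher share among them is therefore built in, and the counts are a description too. ASCRP4009189 had levels of 0.43, 0.64 and 1.37 in ISO TG and 1.00, 1.33 and 0.68 in vehicle TG, groups that overlapped. The difference of its ISO effect between DTG and TG was 1.42 ± 0.42 on the log2 scale (SE, limma adjusted p = 0.74). The 5 brightest circRNA probes had log2 fold changes of 0.84 to 0.96 in TG, beside 0.19 to 0.33 in DTG, and the adjusted p of the difference from limma was between 0.74 and 0.75. Vehicle TG replicate 3 was the lowest TG array for all 5, and without it the TG values were 0.31 to 0.66.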

How the data were processed

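The authors isolated total RNA from left ventricles with a Qiagen RNeasy Plus kit, treated it with RNase R, labelled it with Cy3 and hybridized it to Arraystar mouse circRNA arrays, 1 array per mouse. The deposited intensity values are the background-corrected processed signals of Agilent Feature Extraction version 11.0.1.1, without normalization between arrays. The submitters' processing notes also name limma, with no version. Signals were converted to log2, outlier spots were left out, and each array's 75th percentile over circRNA probes was subtracted. The 10 spots of a linear probe were averaged, and it counted as well above background where more than 50% of its spots were so marked. Groups came from the sample titles. Limma version 3.58.1 (lmFit, eBayes) in R version 4.3.3 was fitted to the 6 arrays, and for the interaction to all 12, with Benjamini-Hochberg adjustment over circRNA and linear probes together. In data simulated with 200 of 12456 probes changed in ISO DTG against vehicle DTG, 28% were recovered at a log2 change of 1 and 90.5% at 2. The false calls beside them numbered 2 and 16. Arrays have no read depth, and 3 mice per group limit the precision. Figures used matplotlib version 3.10.9.

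The members, gene lists and rule for named probes were chosen with earlier results of these data known. Named circRNA probes were the 6 largest differences each way among separated probes well above background on all arrays with an unadjusted p below 0.05, and the 5 brightest. Named linear probes had a symbol and were the 5 brightest, had an unadjusted p below 0.05, or belonged to the lists for fatty acid oxidation, antioxidant enzymes or lipid transport. Of the other 10 gene lists, 0 genes were measured. Alternatives were other scalings, background correction and filters, slide, sex, age and replicate terms, array weights, a variance trend, a 2-fold limit, the t-test named in the methods, and fits without single arrays. Normexp was run on median spot signals, with an offset of 50 units, because the files hold no mean signal. Symbols came from RefSeq for GRCm38.p6. No sequences are printed, since the files hold none for the probes. One result is not reported here.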

Additional observations from a re-analysis of the deposited data

How the results depend on the processing

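The count of 0 circRNA probes past the adjusted limit was 3 with slide as a term, 513 with array weights, 10 without slide 2 and 0 to 2 when 1 array was left out. It stayed 0 under every other alternative, as did the counts of linear RNA probes, for ISO against vehicle and for the interaction, under all alternatives run for them. CircRNA probes with an unadjusted p below 0.05 (1623) numbered 2735 with scaling to the circRNA controls, 207 with all 12 arrays sharing 1 spread, 672 with age as a term, 3101 with array weights, 3415 with normexp and 2748 with normexp and median scaling. Leaving out 1 array gave 977 to 2139. Probes at least 1.5-fold higher (403) numbered 63 with the controls, 107 with 12 arrays, 652 with slide, 629 with weights, 1045 with normexp and median scaling, 772 without slide 2, and 45 at 2-fold, and 321 to 592 without single arrays. Probes at least 1.5-fold lower (300) numbered 1680 with the controls, 87 with 12 arrays, 502 with weights, 162 with the methods' t-test, 1949 with normexp, 13 with normexp and median scaling, 546 without slide 2, and 50 at 2-fold. Without single arrays they numbered 244 to 701, the highest being without vehicle DTG replicate 3. Linear probes with an unadjusted p below 0.05 (4) numbered 2 with quantile normalization and with sex as a term, 15 with the controls, 0 with 12 arrays and by the methods' t-test, 8 with weights, 17 with normexp, 7 with normexp and median scaling, 8 without slide 2, and 1 to 8 without single arrays. The median of the brightest class lay above that of the dimmest by 0.17 on the log2 scale, by 0.92 with either form of normexp, and by 0.05 to 0.24 without single arrays. ASCRP4001752, whose signals lay below the offset of normexp, turned from 1.30 to -0.31 with normexp and -0.037 with normexp and median scaling. The cause of these shifts was not tested.

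Over the named probes and these alternatives, 562 values kept their direction and side of the unadjusted limit, 56 lost and 34 gained it, 18 moved and 2 turned. Normexp on the mean signal was not run. Same-numbered mice of the 2 groups did not deviate together (correlations of -0.06, 0.11 and -0.10 across probes), and not every mouse correlated best with its own number, so the numbers were not taken as pairs. With the replicate number as a block, limma called 0 circRNA probes at the adjusted limit and counted 1336 circRNA and 3 linear probes at an unadjusted p below 0.05, with 417 at least 1.5-fold higher and 339 lower. Both forms of normexp, the fit without slide 2, the TG values without single arrays and the choice of single probes were added after seeing the data. Signal near background limits the dimmest class most, where the median SD over vehicle DTG mice was 0.37, against 0.21 in the brightest.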
